A study of Homo sapiens with 12 samples.

Results

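A set of 47 genes that type I interferon is known to induce was followed in RBE cells, a human cholangiocarcinoma line, under an inhibitor of mutant IDH1, under activation of p53 and under both. The members were taken by gene symbol from a written list of interferon-stimulated genes, and all 47 were among the 55773 entries of the deposited count table. Of these, 39 passed the filter on low counts, as did 15691 entries of the whole table, and 8 did not (IRF9, OAS2, MX2, IFI27, IFI44L, EPSTI1, XAF1 and HERC5). Poly(A) RNA was sequenced in 12 libraries, 3 in each of 4 groups. AG-120 Nutlin cells had 22 days of 5 µM AG-120 (ivosidenib), an inhibitor of mutant IDH1 given to stop 2-hydroxyglutarate being made, and then 72 hours of 5 µM Nutlin, an inhibitor of MDM2 that activates p53. AG-120 DMSO cells had AG-120 and no Nutlin, DMSO Nutlin cells had the vehicle DMSO for 22 days and then Nutlin, and DMSO DMSO cells had vehicle and no Nutlin. All 4 groups are 1 cell line, and no interferon was added in any of them, as far as the labels say. The design asks how lowering 2-hydroxyglutarate changes the gene programme that p53 directs.

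Type I interferons are secreted proteins that bind a receptor made of IFNAR1 and IFNAR2. The kinases JAK1 and TYK2 then phosphorylate STAT proteins, STAT2 among them, which join IRF9 to form the factor ISGF3, and ISGF3 binds an interferon-stimulated response element (ISRE) in the promoters of its target genes. The products of those genes sense viral RNA and DNA, degrade RNA, block viral translation and entry, and tune the signal itself, and many are transcribed at a low level in epithelial cells without any added interferon.

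The letters that ISGF3 reads were looked for in the promoters of the members. The ISRE core was searched as GAAA, any 2 bases and GAAA, on both strands, in the 250 bases before each gene's start, in RefSeq promoters of build GRCh38.p14. A promoter was held for 39 of the 47 members (DDX58 under its newer symbol). IRF7, DHX58, OAS2, OASL, IFIT2, MX2, USP18 and TRIM22 had no entry. Of the 39, 22 held the core, which is 56.4%, against 1014 of 27305 genes (3.71%) in the whole promoter table. The form with the last A left free, which overlaps it, was in 59% of the members with an entry and in 8.41% of all genes. A match says that the letters are present, not that a factor binds there.

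The promoters below are those of members whose RNA was lower with Nutlin (OAS3, BST2, IFIT1, IFI6, PARP14), of ISG15, which was higher with Nutlin and holds the core (of the others that were higher, DHX58, IFIT2 and TRIM22 had no entry to search), and of STAT2 and IFI16, which were higher and lack the core in the 250 bases. Each line gives the 150 bases directly before the start, read 5′ to 3′ on the gene's own strand, with the ISRE core in capitals in either orientation. They lie at chr12:112938324-112938473 (+), chr19:17405631-17405780 (−), chr10:89392473-89392622 (+), chr1:27672193-27672342 (−), chr3:122680689-122680838 (+), chr1:1013347-1013496 (+), chr12:56360108-56360257 (−) and chr1:159008841-159008990 (+), in that order, in GRCh38.p14.
OAS3: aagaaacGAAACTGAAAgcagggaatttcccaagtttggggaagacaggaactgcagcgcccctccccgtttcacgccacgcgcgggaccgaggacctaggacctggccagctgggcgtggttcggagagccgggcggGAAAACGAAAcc
BST2: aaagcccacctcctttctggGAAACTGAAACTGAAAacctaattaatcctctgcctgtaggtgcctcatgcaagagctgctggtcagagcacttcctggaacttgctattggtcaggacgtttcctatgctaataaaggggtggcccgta
IFIT1: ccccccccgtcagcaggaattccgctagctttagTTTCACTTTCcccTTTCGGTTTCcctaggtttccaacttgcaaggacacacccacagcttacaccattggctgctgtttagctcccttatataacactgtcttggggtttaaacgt
IFI6: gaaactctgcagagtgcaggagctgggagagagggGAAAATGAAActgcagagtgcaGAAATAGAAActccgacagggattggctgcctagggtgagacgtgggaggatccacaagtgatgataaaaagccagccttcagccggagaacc
PARP14: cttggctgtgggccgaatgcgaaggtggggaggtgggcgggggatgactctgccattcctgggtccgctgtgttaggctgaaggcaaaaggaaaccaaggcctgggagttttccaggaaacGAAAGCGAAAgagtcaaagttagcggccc
ISG15: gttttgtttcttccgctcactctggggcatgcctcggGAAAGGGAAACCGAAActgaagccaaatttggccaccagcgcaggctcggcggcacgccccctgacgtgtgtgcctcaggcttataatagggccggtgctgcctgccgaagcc
STAT2: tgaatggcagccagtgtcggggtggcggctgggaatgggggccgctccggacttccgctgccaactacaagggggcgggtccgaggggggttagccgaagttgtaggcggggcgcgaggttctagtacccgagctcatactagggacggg
IFI16: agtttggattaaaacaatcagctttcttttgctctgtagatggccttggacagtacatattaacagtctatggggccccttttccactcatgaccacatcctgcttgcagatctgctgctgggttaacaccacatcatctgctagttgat
OAS3 carries the core both near its start and further up, and BST2 and ISG15 carry 2 overlapping cores each. IFIT1 carries them in the reverse orientation.

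The libraries held 16840161 to 27499433 counts (median 19221201), and the 3 counts that a count of 0 allows equal 0.103 to 0.181 CPM per library. Levels are counts scaled by TMM to a common library total (CPM), and they compare libraries, not genes. The p53 targets MDM2 and CDKN1A checked the Nutlin labels and not the AG-120 labels. MDM2 averaged 3343 ± 16.0 CPM in AG-120 Nutlin and 163 ± 26.5 CPM in AG-120 DMSO libraries (SD, n = 3). It averaged 2847 ± 694 CPM in DMSO Nutlin and 146 ± 6.97 CPM in DMSO DMSO libraries. CDKN1A was 22.9-fold higher with Nutlin in AG-120 cells and 22.2-fold higher in DMSO cells. Of 11 leukocyte markers only ITGAM passed the filter, and CD3E, CD3D, CLEC4C and IL3RA held 0 counts, while all 5 biliary epithelial markers passed. An earlier analysis of these libraries set 3 apart: DMSO Nutlin replicates 2 and 3 and AG-120 DMSO replicate 1. The deviation of each library from its group mean correlated with transcript length over genes at 0.385, -0.224 and -0.369 (Spearman) in AG-120 DMSO replicates 1, 2 and 3 and at 0.317, 0.197 and -0.331 in DMSO Nutlin replicates 1, 2 and 3, against -0.0797 to 0.0952 in the other 6 libraries. Deviations from a group mean balance out within the group, so a trend in a single library brings opposite trends in the others. These correlations thus cannot tell which libraries of a group carry the trend. Pairs of libraries were also compared by chi-square per degree of freedom, which is larger where 2 libraries differ more. It was 25.5 for DMSO Nutlin replicates 1 and 2, and 119 and 147 for replicate 3 against them. For AG-120 DMSO it was 9.42 for replicates 2 and 3, and 30.8 and 47.5 for replicate 1 against them. Pairs in the other groups gave 2.85 to 6.86. Counts below are also given without those 3, which leaves 3 AG-120 Nutlin, 2 AG-120 DMSO, 1 DMSO Nutlin and 3 DMSO DMSO libraries, and the lone DMSO Nutlin library is then assumed to vary like those of the other groups.

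With Nutlin, more members fell than rose in both backgrounds. Effectors such as OAS3, BST2 and SAMD9 were lower, STAT2, IRF1, IFI16, ISG15 and TRIM22 were higher, and sensors and ubiquitin ligases moved both ways. In AG-120 cells, 21 of the 39 tested members fell and 7 rose (53.8% and 17.9%), where 28.8% of all tested genes fell and 27% rose, 55.7% in all (edgeR's quasi-likelihood test, adjusted p of at most 0.05 over all tested genes). In DMSO cells 14 fell and 9 rose (35.9% and 23.1%), where 27.1% of all genes fell and 26.8% rose, 53.9% in all, so the shares in DMSO cells lay nearer to those of the whole table. The median log2 fold change of the members was -0.75 in AG-120 cells and -0.29 in DMSO cells, against 0.00 and -0.02 over all tested genes. With single libraries left out, it ran from -0.75 to -0.69 in AG-120 cells and from -0.40 to -0.20 in DMSO cells. Set against the DMSO DMSO mean, the member median was -0.30, -0.33 and -0.04 in DMSO Nutlin replicates 1, 2 and 3. Without the 3 libraries set apart, 24 fell and 7 rose in AG-120 cells, where 34.7% and 32.9% of all genes did, and 14 fell and 8 rose in DMSO cells, where 29.3% and 28.6% did and 1 DMSO Nutlin library was left. Groups were apart with Nutlin lower in 24 members and higher in 7 in AG-120 cells (35.1% of all genes each way), and lower in 16 and higher in 11 in DMSO cells (30.9% and 28.3%). A positive change was seen in 10 members in AG-120 cells and in 14 in DMSO cells, against 50.1% and 49.2% of all tested genes. The 2 responses share no library. In bulk RNA, fewer cells that carry a transcript and less of it per cell cannot be told apart. Whether replicates came from separate cultures is not in the labels, and the spread that the p-values are set against may be technical.

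The same 14 genes fell in both backgrounds: DDX58, OAS3, CMPK2, BST2, ISG20, IFI6, IFI35, SAMD9, PLSCR1, USP18, TRIM25, PARP9, PARP14 and DTX3L. Another 7 were called lower in AG-120 cells and not in DMSO cells: IFIH1, OAS1, IFIT1, IFIT3, MX1, HERC6 and PARP12. STAT2, IRF1, DHX58, IFI16, ISG15, TRIM22 and SP110 rose in both, and IFIT2 and TRIM21 were called higher in DMSO cells and not in AG-120 cells. No member was called in opposite directions in the 2 backgrounds, and 9 members were called in neither. MX1, called lower in AG-120 cells, had a positive change in DMSO cells that was not called (log2 0.22). In DMSO cells some of the smaller falls rested on single libraries: DDX58 was lost without DMSO DMSO replicate 1 or 2 or DMSO Nutlin replicate 1 or 2, IFI35 without any library but DMSO Nutlin replicate 3, PARP9 without DMSO DMSO replicate 1 or 3 or DMSO Nutlin replicate 2, and PLSCR1 without DMSO DMSO replicate 2 or DMSO Nutlin replicate 1 or 2 (largest adjusted p 0.223, for DDX58). Across the 39 members the 2 responses had a Pearson r of 0.95 and a Spearman rho of 0.87, given as a description over genes of the same libraries' tables. The matching shares and correlations over all tested genes were not computed. Of all tested genes, 55.7% were called in AG-120 cells and 53.9% in DMSO cells. Likeness of the 2 responses is thus not shown to be particular to the members.

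**Figure D1:**
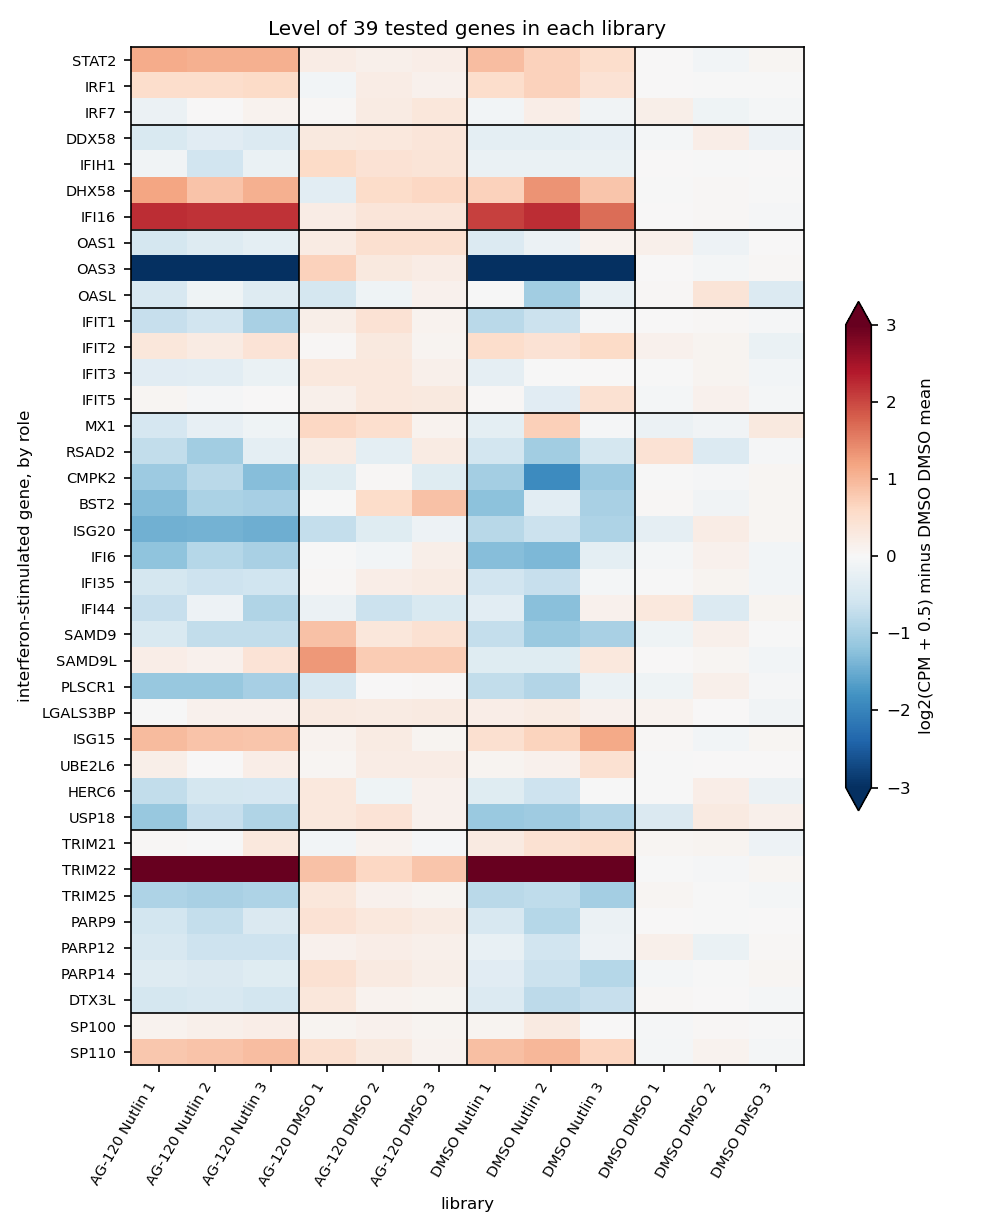
Level of each of the 39 tested members in each of the 12 libraries, as log2(CPM + 0.5) minus the mean of the DMSO DMSO libraries, with members grouped by role from top to bottom (horizontal lines) and groups from left to right (vertical lines). Blue is lower and red higher, and OAS3 and TRIM22 lie past the ends of the colour scale in the Nutlin libraries, where their log2 fold changes were -4.92 and 3.82 in AG-120 cells.

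Of the transcription factors of the pathway, STAT2 and IRF1 rose. STAT2, the subunit of ISGF3 that carries its activation domain (hg19 chr12:56735381-56753939), had 71.6, 68.9 and 69.3 CPM in AG-120 Nutlin libraries, against 38.8, 36.7 and 37.5 CPM in AG-120 DMSO libraries. DMSO cells gave 62.8, 53.8 and 47.7 CPM in DMSO Nutlin libraries, against 33.3, 31.3 and 34.2 CPM in DMSO DMSO libraries. The Nutlin libraries lay above the others without overlap in both backgrounds, and STAT2 rose 1.86-fold in AG-120 cells and 1.66-fold in DMSO cells (log2 0.89 ± 0.10 and 0.73 ± 0.10, SE; adjusted p = 7.71e-06 and 5.14e-05). IRF1, which binds similar letters and also answers interferon gamma (hg19 chr5:131817301-131826490), had 54.0, 53.7 and 55.9 CPM in AG-120 Nutlin libraries, against 35.1, 43.5 and 41.0 CPM in AG-120 DMSO libraries, and 54.3, 60.8 and 51.0 CPM in DMSO Nutlin libraries, against 37.9, 36.8 and 37.3 CPM in DMSO DMSO libraries. It rose by log2 0.45 in AG-120 cells and 0.57 in DMSO cells (adjusted p = 0.00184 and 3.56e-04), again with no overlap.

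IRF7, the factor that amplifies interferon alpha genes, had 7.17, 8.28 and 8.88 CPM in AG-120 Nutlin libraries, against 8.40, 9.81 and 10.5 CPM in AG-120 DMSO libraries, and 7.78, 9.47 and 7.57 CPM in DMSO Nutlin libraries, against 9.33, 7.52 and 7.94 CPM in DMSO DMSO libraries. Its groups overlapped in both backgrounds, and the change was log2 -0.24 in AG-120 cells (95% interval -0.57 to 0.09) and -0.00 in DMSO cells (-0.33 to 0.33), neither called. IRF9, the DNA-binding subunit of ISGF3, held 34 counts over all 12 libraries and was not tested. The entry of IRF9 (hg19 chr14:24630262-24635774) lies wholly inside that of another protein-coding gene, which itself held 16 counts, so the low number does not show that IRF9 RNA was lacking.

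Among the sensors, the DNA sensor rose and the RNA helicases split. IFI16, which binds DNA in the nucleus and cytosol (hg19 chr1:158969758-159024945), had 183, 178 and 179 CPM in AG-120 Nutlin libraries, against 45.8, 50.7 and 50.9 CPM in AG-120 DMSO libraries. The DMSO background gave 164, 183 and 126 CPM in DMSO Nutlin libraries, against 39.3, 40.2 and 38.1 CPM in DMSO DMSO libraries. Every Nutlin library was above every other library of its background, and IFI16 rose 3.66-fold in AG-120 cells and 4.02-fold in DMSO cells (adjusted p = 3.63e-08 and 2.36e-08).

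DHX58, which encodes LGP2, a regulator of the RNA helicase sensors (hg19 chr17:40253422-40264751), had 8.26, 6.51 and 7.53 CPM in AG-120 Nutlin libraries, against 2.57, 5.10 and 5.43 CPM in AG-120 DMSO libraries. The values in DMSO cells were 5.72, 9.29 and 6.33 CPM with Nutlin, against 3.31, 3.45 and 3.30 CPM without. It rose by log2 0.77 ± 0.26 in AG-120 cells and 1.08 ± 0.26 in DMSO cells (adjusted p = 0.0229 and 0.00390), without overlap, though the call in AG-120 cells was lost without AG-120 DMSO replicate 1 or AG-120 Nutlin replicate 1 or 3 (largest adjusted p 0.0766). DDX58, which encodes the RNA sensor RIG-I, fell, with log2 changes of -0.75 ± 0.11 in AG-120 cells and -0.29 ± 0.11 in DMSO cells (adjusted p = 9.09e-05 and 0.0406). IFIH1, which encodes the long RNA sensor MDA5, fell, with a log2 change of -0.84 ± 0.17 in AG-120 cells (adjusted p = 8.42e-04), and its change of -0.22 in DMSO cells did not pass (0.285).

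OAS3 showed the deepest fall of the 39 members in both backgrounds. The OAS enzymes make oligoadenylates that act as second messengers of RNA decay, and OAS3 is the family member that binds long double-stranded RNA. OAS3 (hg19 chr12:113376157-113411054) had 1.87, 2.22 and 2.65 CPM in AG-120 Nutlin libraries, against 83.0, 62.0 and 59.3 CPM in AG-120 DMSO libraries. With the vehicle background the values were 3.12, 2.28 and 2.01 CPM in DMSO Nutlin libraries, against 51.4, 49.2 and 52.0 CPM in DMSO DMSO libraries. The level was 30.3-fold lower with Nutlin in AG-120 cells and 20.6-fold lower in DMSO cells (log2 -4.92 ± 0.19 and -4.37 ± 0.19; adjusted p = 3.68e-10 and 9.48e-10), far beyond the spread between libraries, and every other setting and left-out library kept both calls.

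Of its neighbours on chromosome 12, OAS1 moved less and OAS2 was too low to compare. OAS1 (hg19 chr12:113344582-113369990) had 2.71, 3.01 and 3.23 CPM in AG-120 Nutlin libraries, against 4.97, 5.89 and 5.96 CPM in AG-120 DMSO libraries, a change of log2 -0.91 ± 0.19 (adjusted p = 0.00134). In DMSO cells it had 2.96, 3.60 and 4.49 CPM in DMSO Nutlin libraries, against 4.61, 3.62 and 4.13 CPM in DMSO DMSO libraries, which overlapped, and the change of -0.16 (95% interval -0.57 to 0.25) did not pass. OAS2 was near the floor and untested in the main fit. It had 0, 0 and 1 counts in AG-120 Nutlin libraries, against 3, 10 and 4 counts in AG-120 DMSO libraries. In DMSO cells it had 0, 0 and 0 counts in DMSO Nutlin libraries, against 2, 5 and 7 counts in DMSO DMSO libraries. On these few counts the fit with no filter called OAS2 in DMSO cells, and a fall as deep as that of OAS3 cannot be told from a smaller one. OASL, a catalytically inactive relative, stayed below 0.85 CPM in every library and was called in neither background (-0.35 in AG-120 cells and -0.76 in DMSO cells). An antisense entry, which spans OAS3 and OAS2 and most of OAS1, held 2 counts in all.

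The IFIT proteins bind viral RNA that lacks the host cap modification and hold it back from translation. Their genes sit together on chromosome 10, and they did not move together. IFIT1 (hg19 chr10:91152303-91163745) had 3.62, 3.94 and 2.88 CPM in AG-120 Nutlin libraries, against 6.98, 8.44 and 6.59 CPM in AG-120 DMSO libraries, with no overlap. Its values in DMSO cells were 3.28, 3.71 and 5.90 CPM with Nutlin, against 6.17, 6.22 and 5.91 CPM without, where DMSO Nutlin replicate 3 lay beside the libraries without Nutlin. IFIT1 fell, with a log2 change of -1.07 ± 0.22 in AG-120 cells (adjusted p = 0.00106), and the change of -0.49 ± 0.22 in DMSO cells missed the threshold (0.0705) but passed without DMSO Nutlin replicate 3 (log2 -0.81, adjusted p = 0.00206). IFIT3 fell (log2 -0.56) in AG-120 cells (adjusted p = 9.72e-04) and changed by -0.09, not called, in DMSO cells. IFIT2 had 19.7, 18.5 and 20.6 CPM in DMSO Nutlin libraries, against 14.8, 14.4 and 11.7 CPM in DMSO DMSO libraries, a rise of log2 0.52 ± 0.12 (adjusted p = 0.00292). In AG-120 cells its change of 0.19 did not pass, and IFIT5 was called in neither (-0.25 in AG-120 cells and 0.10 in DMSO cells). The entry of LIPA, with 49862 counts, spans IFIT1, IFIT2 and IFIT3, and reads of overlapping genes cannot be told apart where strand was not used.

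**Figure D2:**
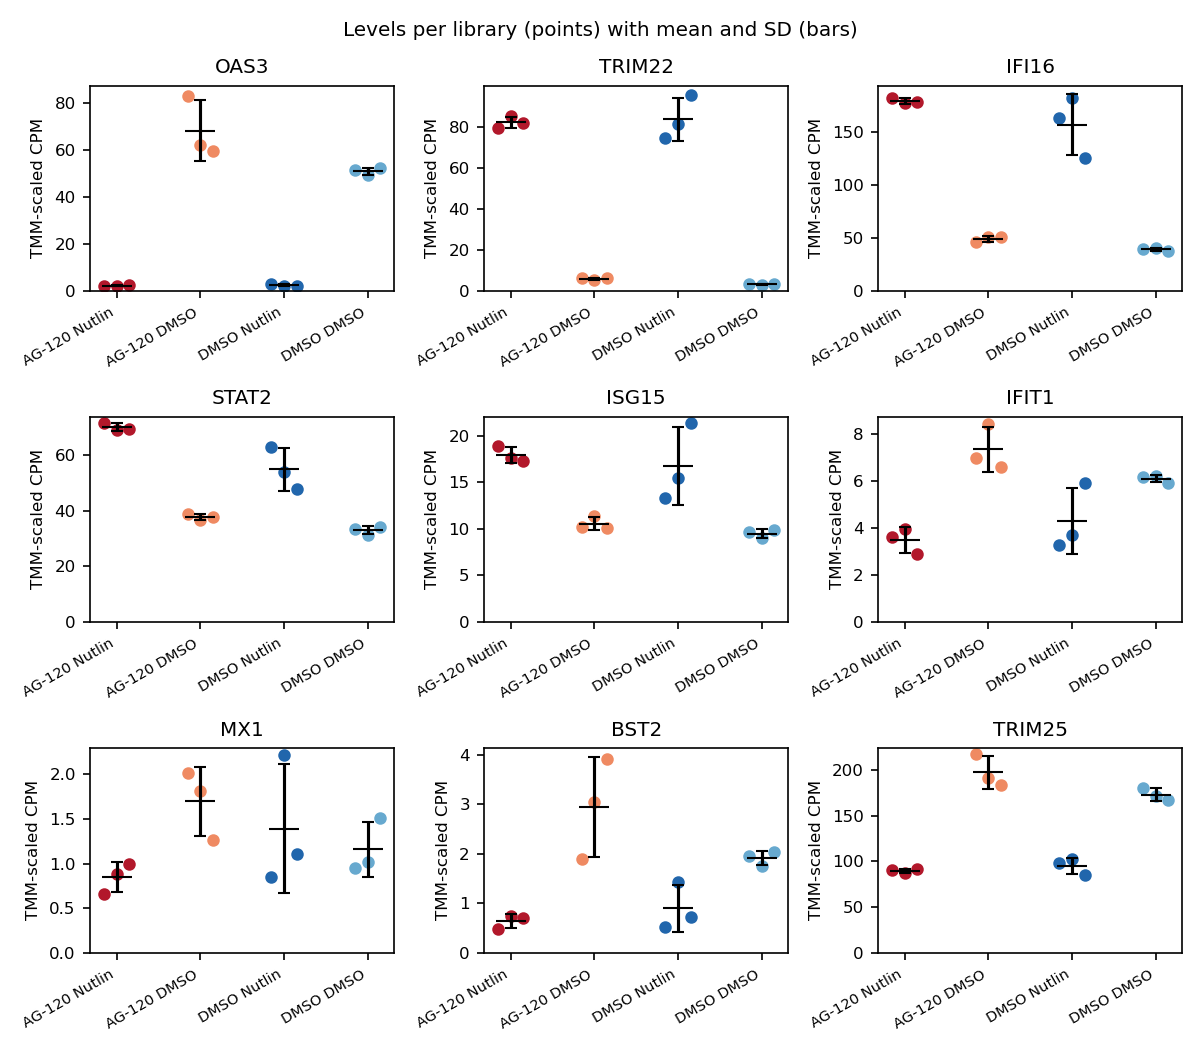
Level in CPM of 9 members in each library (points), with the mean (wide bar) and SD (whiskers) of each group of 3, on linear axes from 0. OAS3, BST2 and TRIM25 are low in both Nutlin groups, and TRIM22, IFI16, STAT2 and ISG15 are high in both. The MX1 values of DMSO Nutlin cells spread over those of DMSO DMSO cells. For IFIT1, DMSO Nutlin replicate 3 lies just below the DMSO DMSO values.

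Of the 17 GTPases and other effectors 12 were tested, and 8 of them fell in AG-120 cells and 7 in DMSO cells (66.7% and 58.3%, where 28.8% and 27.1% of all tested genes fell), and none rose in either. MX1, a dynamin-like GTPase that traps viral nucleocapsids (hg19 chr21:42792231-42831141), had 0.663, 0.888 and 1.000 CPM in AG-120 Nutlin libraries, against 2.01, 1.82 and 1.27 CPM in AG-120 DMSO libraries. In DMSO cells it had 0.847, 2.22 and 1.11 CPM in DMSO Nutlin libraries, against 0.953, 1.02 and 1.51 CPM in DMSO DMSO libraries, where replicate 2 with Nutlin was the highest library of all 12. Its fall in AG-120 cells (log2 -1.0 ± 0.39, adjusted p = 0.0447) was lost in each leave-one-out fit but that without AG-120 DMSO replicate 3 (largest adjusted p 0.142). In DMSO cells the change of 0.22 (95% interval -0.60 to 1.04) turned to -0.26 without DMSO Nutlin replicate 2. MX2 held 2 counts in all 12 libraries.

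BST2, or tetherin, holds budding virus at the cell surface (hg19 chr19:17513748-17516457). It had 0.482, 0.740 and 0.706 CPM in AG-120 Nutlin libraries, against 1.89, 3.04 and 3.90 CPM in AG-120 DMSO libraries. Likewise, BST2 had 0.529, 1.44 and 0.727 CPM in DMSO Nutlin libraries, against 1.96, 1.75 and 2.03 CPM in DMSO DMSO libraries. The groups did not overlap in either background, and BST2 was 4.50-fold lower in AG-120 cells and 2.17-fold lower in DMSO cells (adjusted p = 3.73e-04 and 0.0240), the second lost without DMSO DMSO replicate 1 or 3 or DMSO Nutlin replicate 1 or 3 (largest adjusted p 0.0888).

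ISG20, an RNA exonuclease (hg19 chr15:89179384-89199714), had 0.482, 0.493 and 0.470 CPM in AG-120 Nutlin libraries, against 1.11, 1.57 and 1.90 CPM in AG-120 DMSO libraries, and 1.01, 1.20 and 0.898 CPM in DMSO Nutlin libraries, against 1.70, 2.60 and 2.27 CPM in DMSO DMSO libraries. It fell, with log2 changes of -1.64 ± 0.32 in AG-120 cells and -1.09 ± 0.29 in DMSO cells (adjusted p = 8.08e-04 and 0.00619), without overlap. IFI6, an inhibitor of flavivirus replication at the endoplasmic reticulum (hg19 chr1:27992572-27998729), had 1.33, 1.82 and 1.65 CPM in AG-120 Nutlin libraries, against 3.64, 3.44 and 4.22 CPM in AG-120 DMSO libraries, and 1.22, 1.14 and 2.91 CPM in DMSO Nutlin libraries, against 3.56, 4.07 and 3.47 CPM in DMSO DMSO libraries. It fell, with log2 changes of -1.23 ± 0.31 in AG-120 cells and -1.04 ± 0.31 in DMSO cells (adjusted p = 0.00492 and 0.0121), and DMSO Nutlin replicate 3 was the nearest of the Nutlin libraries to those without Nutlin. SAMD9, a restriction factor of poxviruses (hg19 chr7:92728829-92747336), had 6.15, 4.93 and 4.94 CPM in AG-120 Nutlin libraries, against 16.2, 10.9 and 12 CPM in AG-120 DMSO libraries, and 4.98, 3.66 and 4.10 CPM in DMSO Nutlin libraries, against 7.72, 9.56 and 8.49 CPM in DMSO DMSO libraries. It fell, with log2 changes of -1.29 ± 0.19 in AG-120 cells and -1.01 ± 0.19 in DMSO cells (adjusted p = 5.92e-05 and 5.58e-04), and its libraries did not overlap.

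CMPK2, a mitochondrial nucleotide kinase (hg19 chr2:6980701-7006766), and RSAD2, or viperin, which makes a chain-terminating nucleotide, are neighbours on chromosome 2 whose entries share 830 bases. CMPK2 had 0.482, 0.690 and 0.353 CPM in AG-120 Nutlin libraries, against 1.11, 1.62 and 1.11 CPM in AG-120 DMSO libraries, and 0.529, 0.0599 and 0.470 CPM in DMSO Nutlin libraries, against 1.55, 1.53 and 1.65 CPM in DMSO DMSO libraries, changes of log2 -1.30 ± 0.47 in AG-120 cells and -2.09 ± 0.48 in DMSO cells (adjusted p = 0.0303 and 0.00238), the AG-120 call lost without AG-120 DMSO replicate 2 or AG-120 Nutlin replicate 1 or 3 (largest adjusted p 0.108). RSAD2 had -1.96 in AG-120 cells and -1.88 in DMSO cells with 93 counts in all and did not pass (adjusted p = 0.0684 and 0.0749). IFI35 fell (log2 -0.78 in AG-120 cells and -0.43 in DMSO cells), as did PLSCR1, a membrane scramblase (-0.98 in AG-120 cells and -0.59 in DMSO cells). LGALS3BP, a secreted glycoprotein, changed by -0.18 in AG-120 cells and 0.19 in DMSO cells, neither called. IFI44 and SAMD9L, at no more than 1.35 CPM in any library, were not called either, and IFI27, IFI44L, EPSTI1 and XAF1 held 15, 55, 1 and 0 counts in all and were not tested.

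The ISG15 system split between the modifier and the enzyme that removes it. ISG15, a small protein that is attached to others like ubiquitin (hg19 chr1:948803-949920), had 18.9, 17.7 and 17.3 CPM in AG-120 Nutlin libraries, against 10.2, 11.4 and 10.1 CPM in AG-120 DMSO libraries. In DMSO cells it had 13.3, 15.5 and 21.4 CPM in DMSO Nutlin libraries, against 9.68, 8.99 and 9.83 CPM in DMSO DMSO libraries. It rose 1.70-fold in AG-120 cells and 1.76-fold in DMSO cells (adjusted p = 0.00105 and 6.96e-04), with every Nutlin library above the rest of its background. USP18, which strips ISG15 from proteins and also restrains the interferon receptor (hg19 chr22:18632666-18660164), had 0.663, 1.08 and 0.882 CPM in AG-120 Nutlin libraries, against 2.70, 2.90 and 2.32 CPM in AG-120 DMSO libraries, and 0.688, 0.719 and 0.898 CPM in DMSO Nutlin libraries, against 1.40, 2.60 and 2.37 CPM in DMSO DMSO libraries. It fell, with log2 changes of -1.57 ± 0.30 in AG-120 cells and -1.45 ± 0.30 in DMSO cells (adjusted p = 6.18e-04 and 0.00135), without overlap. The conjugating enzyme UBE2L6 was called in neither background (-0.03 in AG-120 cells and 0.24 in DMSO cells), HERC6 fell (log2 -0.79) in AG-120 cells (adjusted p = 0.00649) and was not called in DMSO cells (-0.34), and the ligase HERC5 held 21 counts in all.

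TRIM22, a ubiquitin ligase that restricts several viruses and is a known p53 target, showed the largest rise of the members. It (hg19 chr11:5710919-5758319) had 79.5, 85.0 and 81.6 CPM in AG-120 Nutlin libraries, against 6.21, 5.10 and 6.06 CPM in AG-120 DMSO libraries. The same gene had 74.2, 81.1 and 95.2 CPM in DMSO Nutlin libraries, against 3.11, 3.05 and 3.34 CPM in DMSO DMSO libraries. The rise was 14.1-fold in AG-120 cells and 26.2-fold in DMSO cells (log2 3.82 ± 0.12 and 4.71 ± 0.13; adjusted p = 6.90e-11 and 2.57e-11). The entry of TRIM5, with 8943 counts, spans TRIM22.

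TRIM25, the ligase that activates RIG-I (hg19 chr17:54965270-54991399), went the other way, with 90.1, 87.5 and 91.3 CPM in AG-120 Nutlin libraries, against 217, 191 and 183 CPM in AG-120 DMSO libraries, and 97.8, 102 and 85.4 CPM in DMSO Nutlin libraries, against 181, 171 and 167 CPM in DMSO DMSO libraries. It fell, with log2 changes of -1.14 ± 0.10 in AG-120 cells and -0.86 ± 0.10 in DMSO cells (adjusted p = 4.59e-07 and 6.61e-06), with no overlap. TRIM21, a cytosolic antibody receptor, rose by 0.44 in DMSO cells (adjusted p = 0.0145) and was not called in AG-120 cells (0.14). The call was lost without DMSO DMSO replicate 3 (adjusted p = 0.0663), with no filter and without the 3 libraries.

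The interferon-induced ADP-ribosylation genes fell together on chromosome 3. PARP9 and its partner ligase DTX3L, which share a promoter region and 340 bases of their entries, fell, with log2 changes of -0.93 and -0.71 in AG-120 cells and -0.49 and -0.63 in DMSO cells, and PARP14 near them fell (-0.71 in AG-120 cells and -0.60 in DMSO cells) (largest adjusted p of the 6 changes 0.0196). PARP12, on chromosome 7, fell (log2 -0.75) in AG-120 cells (adjusted p = 2.94e-04), and its -0.32 in DMSO cells missed the threshold (0.0541). Of the nuclear body proteins, SP110 (hg19 chr2:231032009-231090444) had 13.0, 13.4 and 14.2 CPM in AG-120 Nutlin libraries, against 10.3, 8.88 and 7.75 CPM in AG-120 DMSO libraries, and 13.8, 14.7 and 11.6 CPM in DMSO Nutlin libraries, against 6.92, 7.75 and 6.95 CPM in DMSO DMSO libraries. It rose by log2 0.59 ± 0.14 in AG-120 cells and 0.89 ± 0.14 in DMSO cells (adjusted p = 0.00287 and 1.39e-04), and SP100 changed by 0.06 in AG-120 cells and 0.12 in DMSO cells, not called.

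**Figure D3:**
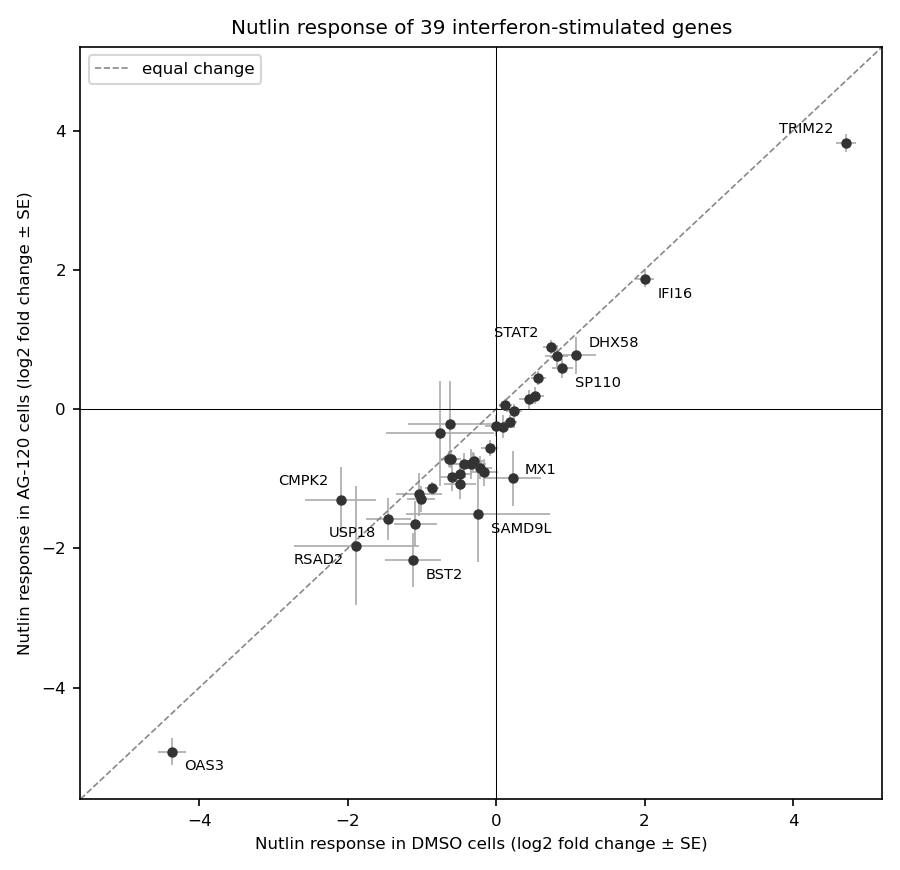
Nutlin response of each of the 39 tested members, as log2 fold change ± SE, in AG-120 cells (vertical axis) and in DMSO cells (horizontal axis); the dashed line marks equal change. OAS3 and TRIM22 lie at the ends, and 35 of the 39 points are below the line.

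Read by promoter, 13 of the 20 genes that fell in AG-120 cells and had a promoter entry held the ISRE core, as did 1 of the 5 that rose (ISG15) and 4 of the 8 tested and not called. In DMSO cells the core was in 8 of 13 that fell, 1 of 6 that rose and 9 of 14 not called. These counts are a description, since the members were chosen as interferon targets. OAS3, BST2, IFIT1, IFI6 and PARP14, whose cores are printed above, fell in AG-120 cells, and ISG15 rose with 2 cores of its own.

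The genes above the members in the pathway gave no ligand to measure. Of 21 interferon ligand genes in the table, 19 held 0 counts in all 12 libraries, IFNB1 and every alpha gene among them, IFNW1 held 2 and IFNL2 held 1. Ligand RNA was thus not detectable at this depth, at which a count of 0 allows up to 0.103 to 0.181 CPM per library. Of 11 tested receptors, kinases and STATs, 2 rose and 4 fell in AG-120 cells, and as many in DMSO cells (54.5% called in each, near the 55.7% and 53.9% of all tested genes). The receptor chain IFNAR2 fell (log2 -0.62 in AG-120 cells and -0.38 in DMSO cells), as did JAK1 (-0.57 in AG-120 cells and -0.55 in DMSO cells) (largest adjusted p 0.0253), whereas IFNAR1 (0.34 in AG-120 cells and 0.22 in DMSO cells) and TYK2 (-0.21 in AG-120 cells and -0.25 in DMSO cells) were not called. STAT3 rose by 0.81 in AG-120 cells and 0.86 in DMSO cells, and the lambda receptor chain IFNLR1 fell (-1.60 in AG-120 cells and -1.93 in DMSO cells).

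Of 12 tested genes of nucleic acid sensing, 4 rose and 4 fell in AG-120 cells, and 4 rose and 5 fell in DMSO cells (66.7% and 75% called, where 55.7% and 53.9% of all tested genes were). TLR3, the endosomal receptor of double-stranded RNA, had 35.6, 35.6 and 37.5 CPM in AG-120 Nutlin libraries, against 3.73, 4.71 and 4.01 CPM in AG-120 DMSO libraries, and 29.9, 25.6 and 35.6 CPM in DMSO Nutlin libraries, against 3.51, 3.68 and 2.75 CPM in DMSO DMSO libraries, rises of log2 3.13 in AG-120 cells and 3.21 in DMSO cells (adjusted p = 3.19e-09 and 3.46e-09). On the log2 scale, the kinase TBK1 rose by 1.04 in AG-120 cells and 0.99 in DMSO cells and IRF5 by 1.44 in AG-120 cells and 1.17 in DMSO cells, while the RNA-activated kinase EIF2AK2 (PKR) fell (-0.91 in AG-120 cells and -1.25 in DMSO cells). Of 14 genes that restrain the pathway or turn over RNA, 4 rose and 7 fell in AG-120 cells, and 2 rose and 7 fell in DMSO cells (78.6% and 64.3% called). On the same scale RNASEH2A fell (-3.11 in AG-120 cells and -2.62 in DMSO cells), and so did the dNTP hydrolase SAMHD1 (-2.48 in AG-120 cells and -1.62 in DMSO cells) and SOCS3 (-1.15 in AG-120 cells and -1.52 in DMSO cells) (largest adjusted p of the 6 changes 4.60e-06).

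Of 37 other tested interferon-induced genes, 11 rose and 8 fell in AG-120 cells, and 15 rose and 8 fell in DMSO cells (51.4% and 62.2% called, where 55.7% and 53.9% of all tested genes were). On the log2 scale, the peptide transporter TAP1 rose by 2.22 in AG-120 cells and 2.51 in DMSO cells, the RNA helicase MOV10 by 1.00 in AG-120 cells and 0.77 in DMSO cells and SLFN5 by 0.92 in AG-120 cells and 1.15 in DMSO cells, while TRIM14 fell (-2.17 in AG-120 cells and -1.62 in DMSO cells), as did PSMB9 (-1.82 in AG-120 cells and -1.28 in DMSO cells). The guanylate-binding protein GBP1 fell to 1, 1 and 1 counts in AG-120 Nutlin libraries, against 36, 40 and 55 in AG-120 DMSO libraries, and to 2, 0 and 1 in DMSO Nutlin libraries, against 25, 20 and 42 in DMSO DMSO libraries. Of 7 tested innate genes listed as linked to p53, 3 of them members (TRIM22, IFI16 and ISG15), 6 rose and none fell in either background, where 27% of all tested genes rose in AG-120 cells and 26.8% in DMSO cells; the list was drawn up for its link to p53, which Nutlin activates.

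**Figure D4:**
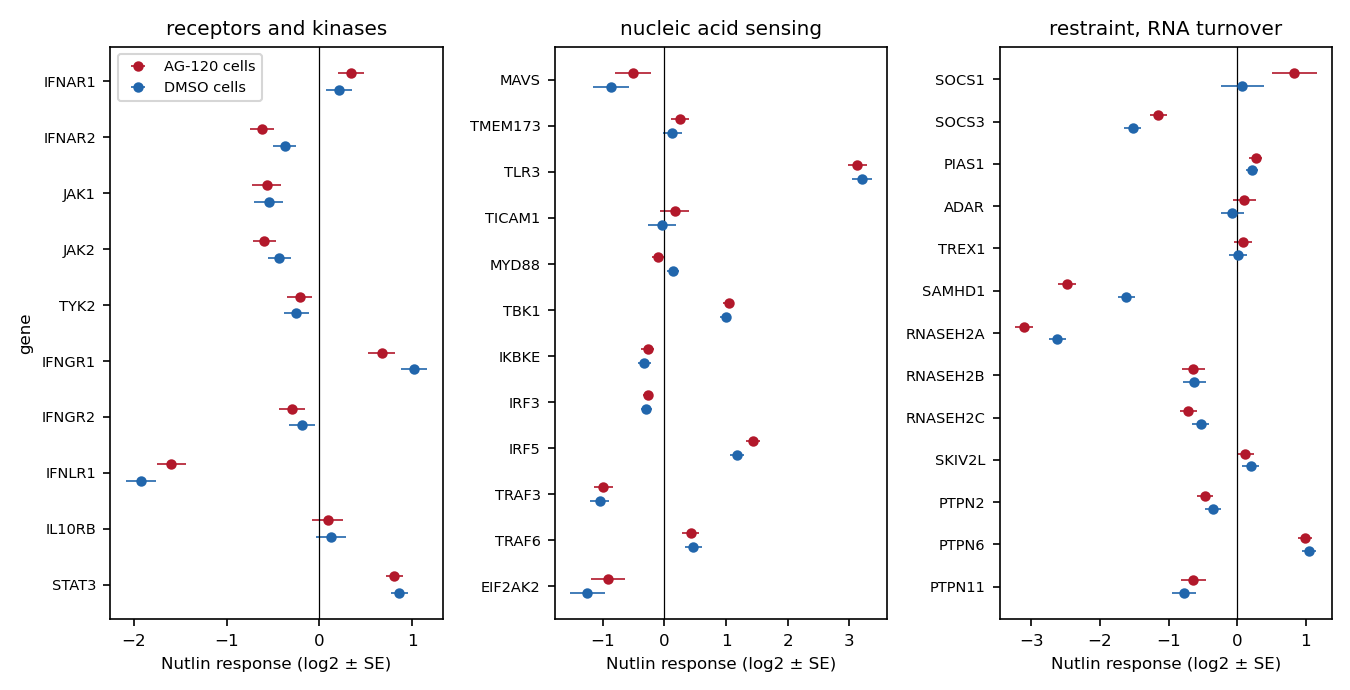
Nutlin response (log2 fold change ± SE) of tested genes around the members, in AG-120 cells (red, upper point of each pair) and in DMSO cells (blue, lower point), for receptors and kinases, nucleic acid sensing, and restraint and RNA turnover. TLR3 (3.13 in AG-120 cells and 3.21 in DMSO cells) stands at the right, and RNASEH2A (-3.11 in AG-120 cells and -2.62 in DMSO cells) and SAMHD1 at the left.

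Markers of other cells moved with Nutlin in places. The summed level of 7 fibroblast markers was 5.47 to 6.36 CPM in AG-120 Nutlin, 46.3 to 49.9 CPM in AG-120 DMSO, 10.5 to 13.5 CPM in DMSO Nutlin and 48.3 to 52.3 CPM in DMSO DMSO libraries, and all 3 that were tested (COL1A1, PDGFRA and PDGFRB) fell in both backgrounds, while DCN and LUM held 0 counts throughout. The summed level of 11 leukocyte markers stayed between 1.65 and 4.29 CPM in every library, and that of 4 endothelial markers between 0 and 1.06 CPM. The 5 epithelial markers summed to 4723 to 4983 CPM in AG-120 Nutlin, 6008 to 7680 CPM in AG-120 DMSO, 6066 to 8033 CPM in DMSO Nutlin and 5334 to 5674 CPM in DMSO DMSO libraries. The part of these shifts in the member changes was not tested.

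Whether AG-120 altered the Nutlin response of the members was tested by the interaction, the response in AG-120 cells minus that in DMSO cells. TRIM22 was the single member that passed, of 39, where 0.331% of all tested genes had a called negative interaction, 0.0319% a positive one and 0.363% one in either direction. Its interaction was log2 -0.89 ± 0.17 (adjusted p = 0.0446). The levels behind it were 82.0 ± 2.80 CPM in AG-120 Nutlin and 83.5 ± 10.7 CPM in DMSO Nutlin libraries, which overlapped, and 5.79 ± 0.602 CPM in AG-120 DMSO and 3.17 ± 0.149 CPM in DMSO DMSO libraries, which did not (SD, n = 3 each). The call was lost in 13 of 20 alternatives, DESeq2 size factors, library totals and each single library left out other than DMSO Nutlin replicates 1 and 3 among them, and the adjusted p ran from 0.00713 to 0.168.

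The interaction was below 0 in 35 of the 39 tested members, against 51% of all tested genes (49% were above 0), with a median of -0.31. That median ran from -0.37 to -0.26 with single libraries left out. CMPK2, STAT2, IFI44 and OASL were above 0. The interaction uses the same libraries as the Nutlin responses and the AG-120 effects, so the counts over members are not independent of each other. None of the 7 members called lower in AG-120 cells alone had a called interaction. Their values were log2 -0.47 for IFIT3, -0.75 for OAS1, -0.62 for IFIH1, -0.44 for PARP12, -1.22 for MX1, -0.58 for IFIT1 and -0.45 for HERC6, with adjusted p of 0.304 to 0.595. A different response in the 2 backgrounds was therefore not shown for these genes; the widest 95% interval of the 7 was that of MX1 (-2.40 to -0.04). By an unadjusted p under 0.05, 8 members passed, against 11% of all tested genes. OAS3 gave -0.55 (95% interval -1.12 to 0.02) and ISG15 -0.05 (-0.53 to 0.42).

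AG-120 without Nutlin raised 1 member of 39 past the threshold, TRIM22 again, where 0.051% of all tested genes (8 genes) were called, all of them higher. TRIM22 had 6.21, 5.10 and 6.06 CPM in AG-120 DMSO libraries, against 3.11, 3.05 and 3.34 CPM in DMSO DMSO libraries, with no overlap, a 1.82-fold rise (log2 0.87 ± 0.13, adjusted p = 0.0348). That adjusted p ran from 0.00105 to 0.29 over 15 alternatives, and the call was lost in 8 of them, with DESeq2 size factors (0.0535) and with only the groups compared (0.0947) among them. Of the 6 leave-one-out fits only that without AG-120 DMSO replicate 2 kept it. This effect shares its libraries with the interaction, so the 2 results for TRIM22 are not independent.

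The other 38 members did not pass, and 33 of the 39 had a positive change, against 50% of all tested genes. With library totals in place of TMM, 32 did, against 40.9% of all genes. The median was 0.21, against 0.00 over all genes. In 21 members every AG-120 DMSO library lay above every DMSO DMSO library, and in none was the order reversed, against 11.4% and 10.3% of all tested genes; with library totals it was 17 members, against 9.15% of all genes. By an unadjusted p under 0.05, 13 members passed, against 7.99% of all tested genes. SAMD9 had 16.2, 10.9 and 12 CPM in AG-120 DMSO libraries, against 7.72, 9.56 and 8.49 CPM in DMSO DMSO libraries (log2 0.61 ± 0.18, adjusted p = 0.355), without overlap. SAMD9L, its paralog, had 25, 12 and 11 counts in AG-120 DMSO libraries, against 3, 3 and 3 counts in DMSO DMSO libraries, the largest change of the members (log2 2.41 ± 0.74) on few counts (adjusted p = 0.385).

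OAS3 had 83.0, 62.0 and 59.3 CPM in AG-120 DMSO libraries, against 51.4, 49.2 and 52.0 CPM in DMSO DMSO libraries, with the highest value in AG-120 DMSO replicate 1 (log2 0.42 ± 0.15, adjusted p = 0.502). For OAS1 the libraries had 4.97, 5.89 and 5.96 CPM with AG-120, against 4.61, 3.62 and 4.13 CPM with DMSO (0.44, adjusted p = 0.576). STAT2 (0.19), ISG15 (0.15), IRF1 (0.10), IRF7 (0.21), IFIT1 (0.27) and MX1 (0.53) were not called. Without the 3 libraries set apart, 7 members were called higher (TRIM22, BST2, DHX58, IFI16, IFIT5, LGALS3BP and OAS3), in a fit of 2 AG-120 DMSO and 3 DMSO DMSO libraries that called 3.67% of all genes higher and 1.81% lower.

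With Nutlin present, AG-120 changed no member past the threshold in edgeR's test (0 of 39 in either direction), where 2.36% of all tested genes were called, 0.433% higher and 1.93% lower. By an unadjusted p under 0.05, 4 members passed, where 19.5% of all tested genes did, and DESeq2 called 1, STAT2. STAT2 had 71.6, 68.9 and 69.3 CPM in AG-120 Nutlin libraries, against 62.8, 53.8 and 47.7 CPM in DMSO Nutlin libraries, with no overlap (log2 0.35 ± 0.10, adjusted p = 0.0896). ISG20 had 0.482, 0.493 and 0.470 CPM in AG-120 Nutlin libraries, against 1.01, 1.20 and 0.898 CPM in DMSO Nutlin libraries (log2 -1.08 ± 0.34, adjusted p = 0.113).

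Among all 39, 14 had a positive change with Nutlin present, against 49.4% of all tested genes, and the median was -0.10. Groups were apart with AG-120 higher in 1 member and lower in 4 (PLSCR1, IFIT2, DDX58 and ISG20), against 14.2% and 14.1% of all genes. The values were -0.13 for OAS3 (95% interval -0.59 to 0.33), -0.03 for TRIM22 (-0.26 to 0.20), 0.10 for ISG15 (-0.24 to 0.43), -0.31 for IFIT1 (-0.80 to 0.17), -0.31 for OAS1 (-0.73 to 0.12) and -0.69 for MX1 (-1.55 to 0.18). IRF1 and IRF7 gave -0.02 and -0.02.

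**Figure D5:**
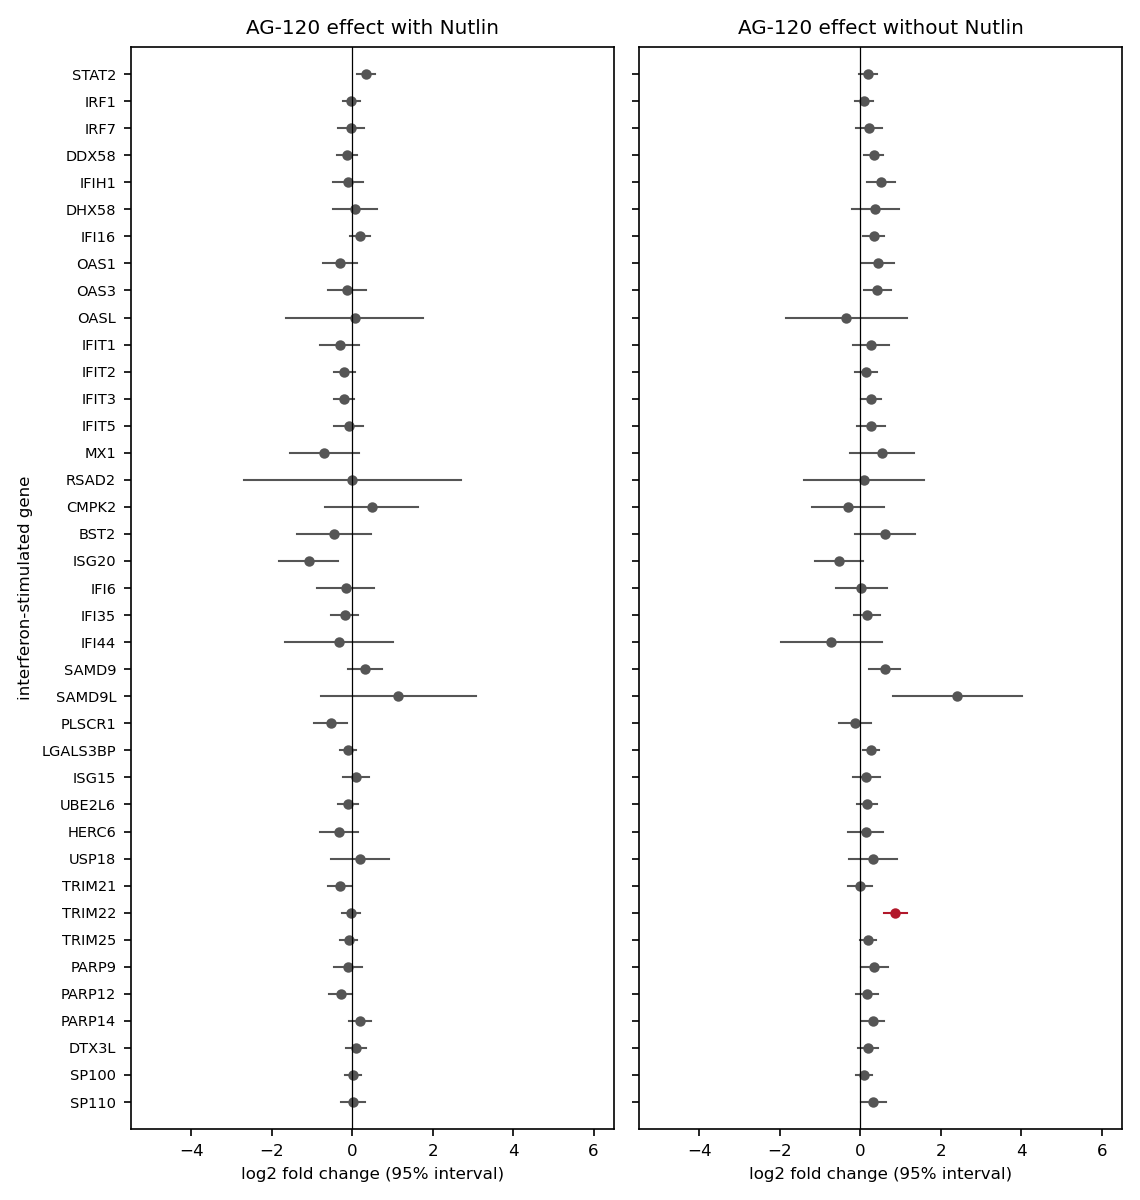
Effect of AG-120 on each of the 39 tested members, with Nutlin (left) and without Nutlin (right), as log2 fold change (point) with its 95% interval (line); red marks a called gene. TRIM22 without Nutlin is the called member, and without Nutlin 33 of 39 points lie to the right of 0, against 14 of 39 with Nutlin.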

How the data were processed

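The deposited counts are whole numbers of reads per gene symbol, not normalized, from poly(A) libraries that were read as pairs of 150 bases, per the labels. The submitters' processing notes name Partek, STAR, HTSeq, DESeq2 and build hg19, with no version. Whether reads were counted by strand is not given in the sources used here. Levels were computed from the deposited counts as TMM-scaled CPM, with no pseudocount, and 1 base was taken off the deposited gene end, which lies past the last base. Entries whose symbol had turned into a date (28) were kept in the tests.

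The tests used edgeR 4.0.16, with limma 3.58.1, under R 4.3.3: filterByExpr on the 4 groups, TMM, 1 quasi-likelihood model of all 12 libraries, and glmQLFTest for the Nutlin response in AG-120 and in DMSO cells, the AG-120 effect with and without Nutlin, and the interaction. Benjamini-Hochberg adjustment ran over all 15691 tested genes within each comparison, with calls made at 0.05 or below. Full values are given for the up to 8 largest changes in each direction among called members that averaged 1 CPM or more in either of the groups, for members called in an AG-120 effect or the interaction, and for ISG15, OAS1, OAS2, OAS3, IFIT1, MX1, STAT2, IRF9, IRF7, IRF1 and TRIM22. Values of other members were chosen for the text after they were seen. The members, the lists and the alternatives were chosen with earlier results of these data known. Of 146 other listed genes, 5 were not found by symbol, and a few are counted in their lists and not reported by name here. The alternatives were DESeq2 1.42.0, its size factors, library totals, other filters, a block for the replicate number, a model with no groups but those compared, each library left out, 3 libraries left out, and removal of the trend with transcript length, which was added after the data were seen. Floors on counts cover counting error only. Intervals on log2 fold changes come from the quasi-likelihood model and also include the spread between libraries, which may be technical.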

Additional observations from a re-analysis of the deposited data

Results flagged for a closer look

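The Nutlin response of TRIM22 differed between the AG-120 and DMSO backgrounds by a test of the difference itself: log2 -0.89 (adjusted p = 0.0446), with a rise of 3.82 in AG-120 cells and 4.71 in DMSO cells. The call was lost in 13 of 20 alternatives, 10 of the 12 fits with a single library left out among them (adjusted p up to 0.168). The levels without Nutlin were 6.21, 5.10 and 6.06 CPM in AG-120 DMSO libraries, against 3.11, 3.05 and 3.34 CPM in DMSO DMSO libraries.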

How the results depend on the processing

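Both Nutlin responses kept their direction and their count of called members within 1.5 times in every alternative but one: with only the DMSO groups fitted, 9 members fell (BST2, DDX58, IFI6, IFI35 and PARP9 were lost), and leaving out single libraries gave 10 to 17, with 17 without DMSO Nutlin replicate 3. Same-numbered libraries correlated at -0.224 to 0.0908 in their deviations from the group means, and the main fit did not pair them. Whether they were handled together is not in the labels. With the replicate block, 27 members were called in AG-120 cells and 23 in DMSO cells, and TRIM22 was called neither in the AG-120 effect without Nutlin (0 members, adjusted p = 0.0754) nor in the interaction (0 members, adjusted p = 0.0780). The AG-120 effect without Nutlin also had 0 called members with DESeq2 size factors and with only the groups compared, 7 without the 3 libraries set apart and 0 to 1 with single libraries left out, and its median was 0.17 with library totals and 0.26 with the length trend removed. The interaction had 0 called members with DESeq2 size factors and library totals, 2 without the 3 libraries (LGALS3BP added, with 1 DMSO Nutlin library left and 2.73% of all genes called lower) and 0 to 1 with single libraries left out. The AG-120 effect with Nutlin had 1 member higher with DESeq2 (STAT2), 1 lower with no filter (PLSCR1) and 0 to 1 higher with single libraries left out, and its median was -0.023 without the 3 libraries, -0.057 with the length trend removed and -0.13 to -0.011 with single libraries left out. The cause of these shifts was not tested. Signs were followed in each comparison for its called members and for ISG15, OAS1, OAS3, IFIT1, MX1, STAT2, IRF7, IRF1 and TRIM22. Those that turned were all of members not called, and the signs of other members were not followed. In the Nutlin response of DMSO cells IRF7 turned to 0.0025 with DESeq2, 0.0038 with its size factors and 0.0037 with only the groups compared, and MX1 to -0.51 without the 3 libraries; single libraries moved IRF7 between -0.10 and 0.096 and MX1 between -0.26 and 0.49. In the AG-120 effect with Nutlin, without the 3 libraries, which sets 3 AG-120 Nutlin libraries against DMSO Nutlin replicate 1 alone, OAS1 turned to 0.022, IFIT1 to 0.10, MX1 to 0.020, IRF7 to 0.073, IRF1 to 0.017 and TRIM22 to 0.16, and IRF7 to 0.054 with the length trend removed. There single libraries moved ISG15 between -0.041 and 0.32, OAS3 between -0.27 and 0.077, IFIT1 between -0.47 and 0.00013, IRF7 between -0.097 and 0.079, IRF1 between -0.077 and 0.049 and TRIM22 between -0.10 and 0.080. In the interaction ISG15 turned to 0.0032 with library totals, 0.26 without the 3 libraries and 0.046 with the length trend removed, and lay between -0.19 and 0.16 with single libraries left out, and STAT2 turned to -0.0021 without the 3 libraries.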
